A study of Mus musculus with 9 samples.

Results

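The Hox genes of mouse aortic valve explants were measured with 37 probe sets, 1 per gene, of 19934 genes that had a probe set with a single symbol. Members were all probe sets whose single symbol in the platform's gene table was Hox followed by a, b, c or d and a number, which is the cluster and the paralogue number of the gene. The rule reads symbols and no intensities. The 4 clusters were represented by 10 genes of cluster a, 9 of b, 9 of c and 9 of d. By paralogue number, 7 members were numbered 1 to 3, 14 were numbered 4 to 8 and 16 were numbered 9 to 13. Hoxb8 was covered only by a probe set shared with Hoxb7 and is no member.

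The study exposed aortic valves of C57BL/6J mice at postnatal day 1 to all-trans retinoic acid (ATRA) or to LE540, an antagonist of the retinoic acid receptors, to ask how gain and loss of retinoic acid signalling change valve expression. All groups shared the explant culture, on filters in medium with fetal bovine serum, and each sample was a pool of valves from 5 to 6 pups. The controls received DMSO at 0.001%, the ATRA group 1 µmol/L ATRA dissolved in DMSO, and each for 48 hours; for LE540 the labels give neither a dose nor a vehicle, and the sex of the pups is not given for any group. There were 3 arrays per group, labelled as biological replicates, and 9 arrays in all. A pool is 1 sample, so the spread between arrays is the spread between pools.

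Hox genes encode homeodomain transcription factors that give cells a position along the head to tail axis. Within a cluster, low numbers lie at the 3′ end and act early and toward the head, and high numbers lie at the 5′ end and act late and toward the tail. In the embryo retinoic acid turns on the low-numbered genes through receptors bound near them, and such genes mark the cardiac progenitors and neural crest that contribute to the outflow tract, from which the aortic valve is formed. Hox proteins bind DNA together with homeodomain cofactors of the Meis and Pbx families.

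Stretches of sequence upstream of 3 members are given to show the 2 motifs that bear on these roles, the core motif of the retinoic acid receptors and the joint Hox and Pbx site. They come from RefSeq (build GRCm38.p6), which held the 250 bases before the start site for 21 of the 37 members, and are written 5′ to 3′ along the gene, with the motif in capitals. In the Hoxb4 sequence the capitals mark the receptor motif AGGTCA, which lies on the opposite strand 81 to 76 bases before the start. In the Hoxb1 and Hoxa2 sequences they mark TGATNNAT, the Hox and Pbx motif, which lies 162 to 155 bases before the Hoxb1 start as printed and 111 to 104 bases before the Hoxa2 start on the opposite strand.
Hoxb4 chr11:96318017-96318266 plus strand: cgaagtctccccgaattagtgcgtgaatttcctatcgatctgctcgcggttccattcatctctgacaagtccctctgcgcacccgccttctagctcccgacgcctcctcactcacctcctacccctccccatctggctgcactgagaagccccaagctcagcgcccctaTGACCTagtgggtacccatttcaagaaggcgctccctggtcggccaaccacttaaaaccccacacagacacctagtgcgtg
Hoxb1 chr11:96365508-96365757 plus strand: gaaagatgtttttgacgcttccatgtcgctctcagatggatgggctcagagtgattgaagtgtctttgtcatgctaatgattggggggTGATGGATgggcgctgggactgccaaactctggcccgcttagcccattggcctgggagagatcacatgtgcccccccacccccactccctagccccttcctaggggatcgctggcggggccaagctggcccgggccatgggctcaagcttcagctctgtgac
Hoxa2 chr6:52164832-52165081 minus strand: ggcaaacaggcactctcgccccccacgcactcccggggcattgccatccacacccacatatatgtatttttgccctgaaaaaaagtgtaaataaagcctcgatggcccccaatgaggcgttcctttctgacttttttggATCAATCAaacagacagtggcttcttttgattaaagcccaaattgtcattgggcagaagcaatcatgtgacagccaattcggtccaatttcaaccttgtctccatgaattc

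Both strands of each window were searched. AGGTCA was found for 6 of the 21 members (Hoxb4, Hoxc4, Hoxd3, Hoxd4, Hoxd8 and Hoxd10) and in 14.02% of the 32851 RefSeq windows of this length. TGATNNAT was found for 3 members (Hoxa2, Hoxb1 and Hoxd11) and in 7.68% of all windows. The complete retinoic acid response elements of the DR5 and DR2 kinds, direct repeats that contain relaxed forms of that motif, were found for 0 members and in 0.0883% and 0.174% of all windows. The median GC content was 59.2% in the 23 windows of the members and 52.4% in all windows. A match in such a window is a description of its letters and not a site of binding.

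Hox signals were low to middling on these arrays. The values are RMA intensities, probe brightness after background correction, normalization between arrays and summary over the probes of a probe set, on a linear scale. Members ranged from 33.3 to 332 over the 9 arrays, while the lower quartile of the 23397 probe sets with a gene symbol lay between 64.5 and 69.1 by array and the median between 134 and 139. On all 9 arrays, 9 members (24.3%, against 19.3% of all tested probe sets) lay under the lower quartile and 2 (5.41%, against 40.9%) lay over the median. Another 24 were under the median on all 9 arrays without being under the lower quartile on all of them, and Hoxb3 and Hoxb7 lay over the median on 8 arrays and on 1. The mean over the arrays was above the lower quartile of means for 21 members. Probes differ in how brightly they bind, so the signal of one Hox probe set was not ranked against that of another. The files hold no detection call, and a difference in a dim probe set may be understated.

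Hoxa4, Hoxb1 and Hoxb3 were the members with a mean over the median. Hoxa4, which helps pattern the neck vertebrae, had intensities of 220, 219 and 258 on the DMSO arrays, 265, 332 and 258 on the ATRA arrays and 297, 258 and 240 on the LE540 arrays. Hoxb1, which specifies a segment of the hindbrain and is expressed in early cardiac progenitors, had 179, 170 and 179 in DMSO, 204, 188 and 174 in ATRA and 187, 207 and 194 in LE540. Hoxb3, a hindbrain and pharyngeal arch gene, had 160, 161 and 161 in DMSO, 161, 173 and 169 in ATRA and 195, 133 and 147 in LE540. All 9 arrays gave Hoxa4 and Hoxb1 a signal over the array median, and Hoxb3 was below it on LE540 replicate 2 alone.

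**Figure D1:**
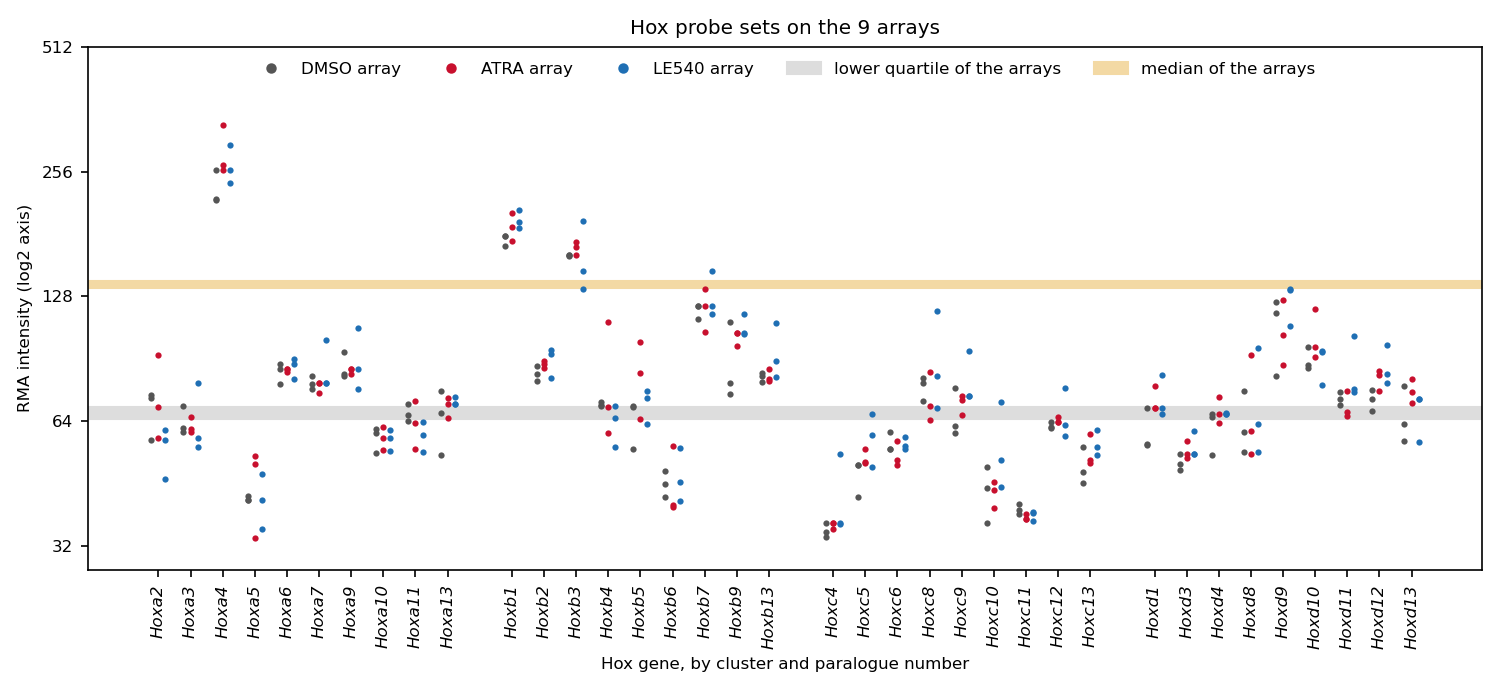
RMA intensity (log2 axis) of the 37 Hox probe sets on each of the 9 arrays, by cluster and paralogue number, with grey, red and blue points for DMSO, ATRA and LE540 arrays. The grey band spans the lower quartiles of the arrays (64.5 to 69.1) and the yellow band their medians (134 to 139); most members sit between or below the bands, and the 3 groups lie close together within most members.

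From the lowest to the highest of the 9 arrays, a member spanned 1.096-fold (Hoxc11) to 2.01-fold (Hoxb4), with a median of 1.43-fold. The residual SD within groups had a median of 0.16 log2 over the members and 0.19 log2 over all tested probe sets. No fold span was taken over all tested probe sets, and no residual SD over equally dim ones. Several arrays often carried exactly the same deposited value of a member: 20 of 37 members (54.1%) had at least 2 such arrays and 15 (40.5%) at least 3, against 37.0% and 16.7% of all tested probe sets and 51.9% and 26.1% of those with a mean under the median of means. Hoxd1, for example, was 68.73 on 4 arrays, 1 of DMSO, 2 of ATRA and 1 of LE540. Arrays tied in this way have no order among themselves.

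Established target genes of retinoic acid were higher on the ATRA arrays. Tgm2, a protein-crosslinking transglutaminase, rose with ATRA against DMSO (log2 change 2.32, SE 0.11, limma adjusted p = 0.000228), and so did Dhrs3, which reduces retinaldehyde (2.81, SE 0.34, adjusted p = 0.0508), and Cyp26a1, which degrades retinoic acid (1.25, SE 0.15, adjusted p = 0.0512). Rarb, a retinoic acid receptor and classical target, had 2.25 (SE 0.46, adjusted p = 0.353). Cyp26a1 was dim, over the array median on 0 of the 9 arrays. On the DMSO and LE540 arrays it lay at 42.7 to 56.65, under the lower quartile. All 4 rose with ATRA against LE540 (adjusted p = 0.000395 to 0.0595). The call of Tgm2 held under every alternative tried. Against DMSO, that of Dhrs3 was lost without DMSO replicate 1 or 3, ATRA replicate 1 or 3 or LE540 replicate 2 or 3 (adjusted p = 0.111 to 0.202), and that of Cyp26a1 without any 1 DMSO array, ATRA replicate 1 or 2 or LE540 replicate 2 (0.111 to 0.309). Against LE540, that of Rarb was lost without DMSO replicate 3, ATRA replicate 1 or 3 or LE540 replicate 1 (0.123 to 0.193). These calls were also lost when only the 2 groups compared were fitted (limma adjusted p = 0.225 for Dhrs3, 0.138 for Cyp26a1 and 0.195 for Rarb). On linear intensities (0.473, 0.318 and 0.279) and at a threshold of 0.05 they were lost too.

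LE540 replicate 1 stood apart. Its log2 values correlated with those of the other arrays at r = 0.956 to 0.969, over probe sets, which are not independent, while all pairs of arrays spanned 0.956 to 0.991. It was the highest of the 9 arrays for 16 of 37 members (43.2%), for 28.4% of all tested probe sets and for 37.8% of those with a mean under the median of means. Its median deviation from the mean of the 9 arrays was 0.18 log2 over the members, 0.35 over cluster c and 0.16 over all probe sets with a mean under the lower quartile of means. LE540 medians of the members are therefore given with and without it, as are most changes named for single Hox genes.

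**Figure D2:**
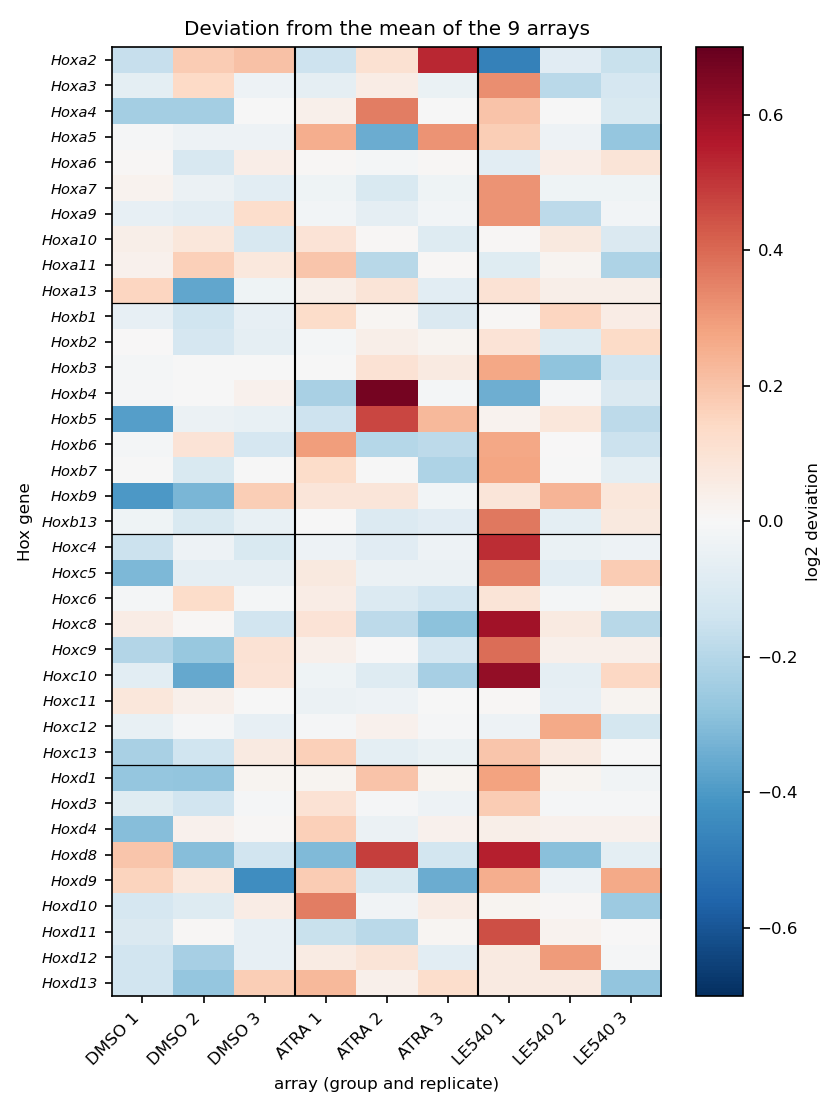
Deviation (log2) of each Hox probe set on each array from its mean over the 9 arrays, with red above and blue below the mean; horizontal lines part the clusters and vertical lines the groups. The column of LE540 replicate 1 is mostly red, with 16 of 37 members at their highest there.

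The comparison of ATRA with DMSO asks whether added retinoic acid changed Hox expression in the neonatal valve. None of the Hox probe sets passed: 0 of 37 had an adjusted p under 0.1 in limma, the threshold of the series' design text, where 0.0812% of all 23397 tested probe sets did (18 up and 1 down). At an unadjusted p under 0.05 there were 0 members, against 4.70% of all tested, or 1 (Hoxd1) against 6.022% without LE540 replicate 1. All 37 of the 95% intervals lay within 2-fold either way, as for 91.3% of all tested, and their outermost bounds were 0.688-fold and 1.66-fold. The lowest adjusted p of a member was 0.999.

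The largest change with ATRA was that of Hoxb5, which takes part in enteric nerve and vessel development. Its intensities were 54.7, 69.6 and 69.0 in DMSO and 64.7, 99.0 and 83.5 in ATRA, so the lowest ATRA array lay among the DMSO arrays and the other 2 above them. The log2 change was 0.34 (SE 0.17, 95% interval -0.05 to 0.73, adjusted p = 0.999), and it was 0.20 without ATRA replicate 2 and 0.23 without DMSO replicate 1. Hoxa4 had a mean of 285 ± 40.8 with ATRA and 232 ± 22.4 with DMSO (SD, n = 3 arrays each), a log2 change of 0.29 (SE 0.14, interval -0.02 to 0.60), or 0.18 without ATRA replicate 2. Its groups were formally apart, but only by 258.20 on ATRA replicate 3 against 258.14 on DMSO replicate 3.

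Hoxd1, which in mammals helps shape pain-sensing neurons, had 56.2, 55.9 and 68.7 in DMSO and 68.7, 77.9 and 68.7 in ATRA, a log2 change of 0.26 (SE 0.13, interval -0.03 to 0.55). DMSO replicates 1 and 2 were low and replicate 3 was level with the lower ATRA arrays. Hoxb9, a thoracic patterning gene, had 74.5, 79.0 and 111 in DMSO and 104, 104 and 97.1 in ATRA, so DMSO replicate 3 was above all ATRA arrays. Its log2 change was 0.23 (SE 0.15), which was 0.12 without DMSO replicate 1 and 0.41 without DMSO replicate 3. Hoxd13, which shapes the digits and the urogenital tract, had 62.8, 57.2 and 77.7 in DMSO and 80.6, 70.6 and 75.04 in ATRA, a log2 change of 0.20 (SE 0.15), which was 0.11 without DMSO replicate 2 and 0.33 without DMSO replicate 3. For all 3 genes DMSO replicate 3 was the highest DMSO array and the groups overlapped or were tied.

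The ATRA arrays lay wholly above the DMSO arrays for 2 members, Hoxa4 and the dim Hoxc5, against 4.97% of all tested probe sets, and wholly below for 0 members, against 6.34%. Hoxc5 had 42.0, 49.95 and 50.01 in DMSO and 54.8, 50.9 and 50.8 in ATRA. Changes were small and mostly positive: 26 of 37 members were higher and the median log2 change was 0.08, beside 11353 of 23397 and -0.01 over all tested probe sets. The median deviation of the members from the mean of the 9 arrays was -0.06, -0.06 and -0.01 on the DMSO arrays. On the ATRA arrays it was 0.03, -0.01 and -0.03, so ATRA replicate 3 lay below DMSO replicate 3. By cluster the median was 0.01 in a (6 of 10 higher), 0.08 in b (8 of 9), 0.04 in c (5 of 9) and 0.14 in d (7 of 9). By paralogue number it was 0.09 for numbers 1 to 3 (6 of 7 higher), 0.07 for 4 to 8 (10 of 14) and 0.02 for 9 to 13 (10 of 16). The pooled SD of such a median between arrays of a group was 0.07 log2 over all members, 0.07 in cluster a, 0.06 in b, 0.12 in c and 0.08 in d. By paralogue number that SD was 0.09 for 1 to 3, 0.10 for 4 to 8 and 0.05 for 9 to 13.

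**Figure D3:**
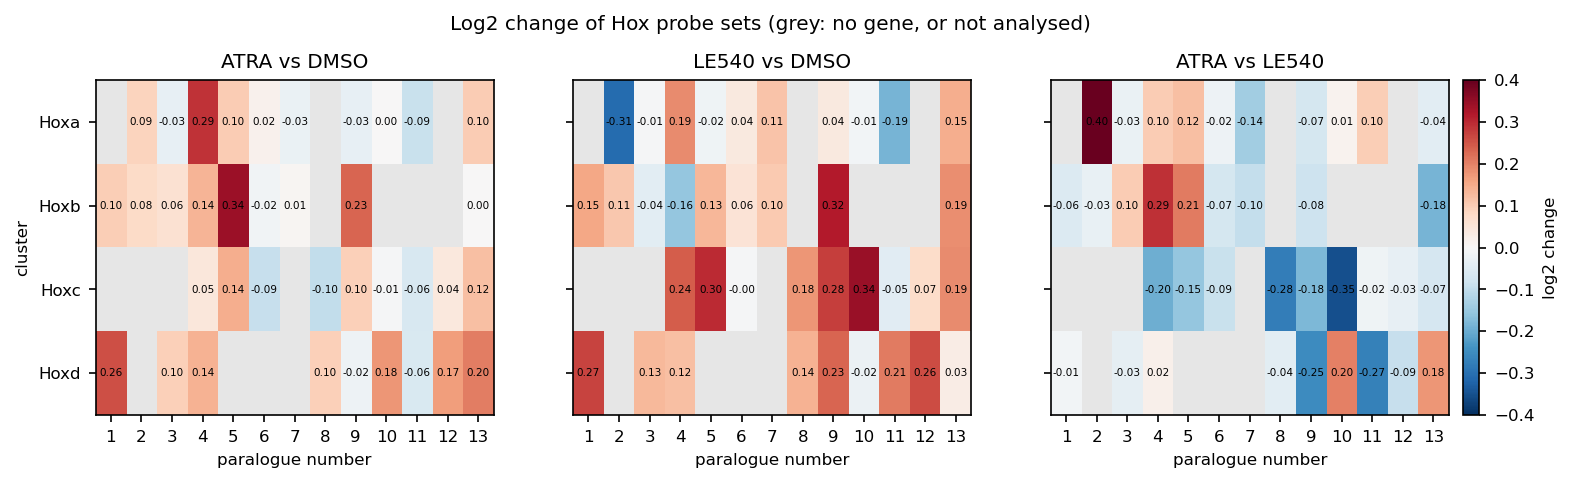
Log2 change of each Hox probe set by cluster (rows) and paralogue number (columns) for the 3 comparisons, with red for higher and blue for lower in the group named first and grey where no gene exists or none was analysed. With ATRA against DMSO the changes run from -0.10 to 0.34, and 0 of the 37 members passed in any of the panels.

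The comparison of LE540 with DMSO asks what blocking the receptors did to the same genes; it uses the same DMSO arrays as the comparison of ATRA with DMSO. Here too 0 of 37 members passed in limma, against 0.0299% of all tested probe sets (7 up), and the lowest adjusted p of a member was 0.556. At an unadjusted p under 0.05 there were 2 members, Hoxd12 and Hoxc5, which is 5.41% against 8.80% of all tested. Without LE540 replicate 1 there was 1, Hoxd12, against 5.603% of all tested, and the change of Hoxc5 went from 0.30 to 0.20. All 37 intervals lay within 2-fold either way, against 88.8% of all tested, with outermost bounds of 0.598-fold and 1.70-fold.

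Hoxd12, a limb and tail patterning gene, had 72.4, 67.6 and 76.2 in DMSO and 82.9, 97.5 and 79.1 in LE540. The groups did not overlap, and the log2 change was 0.26 (SE 0.11, interval 0.01 to 0.51, limma adjusted p = 0.556), or 0.29 without LE540 replicate 1 and 0.17 without LE540 replicate 2. Its ATRA arrays, at 82.8, 84.6 and 75.4, were likewise mostly above the DMSO arrays (log2 change 0.17, SE 0.11). Hoxb9 had 104, 116 and 104 in LE540, a log2 change of 0.32 (SE 0.15, interval -0.02 to 0.66), which was 0.34 without LE540 replicate 1, 0.21 without DMSO replicate 1 and 0.49 without DMSO replicate 3. Hoxd1 had 82.4, 68.7 and 66.7, a log2 change of 0.27 (SE 0.13), which was 0.17 without LE540 replicate 1. For Hoxb9 and Hoxd1 the LE540 and ATRA arrays were at like intensities, and in both comparisons DMSO replicates 1 and 2 were the low arrays.

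Hoxc9, which acts in thoracic patterning and motor neurons, had 62.2, 59.7 and 77.0 in DMSO and 94.2, 73.4 and 73.4 in LE540, where replicate 1 was the highest. Its log2 change was 0.28 (SE 0.14), and 0.16 without that array. Hoxd9, a gene of the lumbosacral level and the limb, had 124, 117 and 82.1 in DMSO and 133, 109 and 134 in LE540, so the groups overlapped, and its change of 0.23 (SE 0.19) was 0.05 without DMSO replicate 3 and 0.18 without LE540 replicate 1. Outside the genes chosen by the naming rule, the dim Hoxc10 had 44.2, 36.2 and 49.6 in DMSO and 71.0, 44.4 and 51.4 in LE540; its change of 0.34 (SE 0.18) was 0.15 without LE540 replicate 1.

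LE540 arrays lay wholly above DMSO arrays for 2 members, Hoxb1 and Hoxd12, against 6.74% of all tested probe sets, and wholly below for 1, Hoxa11, against 5.86%. Hoxb1 had means of 196 ± 10.0 and 176 ± 5.595 (SD, n = 3 arrays each), a log2 change of 0.15 (SE 0.10), or 0.19 without LE540 replicate 1. Hoxa11, which patterns the forearm and the uterus, had 64.01, 70.5 and 66.0 in DMSO and 59.2, 63.5 and 53.9 in LE540, a log2 change of -0.19 (SE 0.12) with and without that array. Over the members, 27 of 37 were higher with LE540 and the median log2 change was 0.12, beside 12792 of 23397 and 0.02 over all tested probe sets. Of the 5850 probe sets with a mean under the lower quartile of means, 3702 were higher. Without LE540 replicate 1 the members had a median of 0.06 with 22 of 37 higher, beside -0.01 and 11269 of 23397 over all tested.

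Leaving out that array moved the medians of the clusters and number groups by different amounts. Cluster c had the highest median with LE540, 0.19 (7 of 9 higher), which was 0.11 without replicate 1. Clusters a, b and d had 0.02, 0.11 and 0.14, and -0.06, 0.06 and 0.07 without it. For paralogue numbers 1 to 3, 4 to 8 and 9 to 13 the medians were 0.11, 0.12 and 0.17, and 0.07, 0.00 and 0.09 without it. What set replicate 1 apart was not tested.

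The comparison of ATRA with LE540 sets the agonist against the antagonist and is also the test of whether the compounds differed in their effect. In limma 0 of 37 members passed, against 0.603% of all tested probe sets (96 up and 45 down), and the lowest adjusted p of a member was 0.568. At an unadjusted p under 0.05 there were 0 members, against 9.54% of all tested; without LE540 replicate 1 there was 1, Hoxb3, against 7.565%. All 37 intervals lay within 2-fold, against 88.2% of all tested, with outermost bounds of 0.587-fold and 1.78-fold. No member had ATRA arrays wholly above or wholly below the LE540 arrays (0 and 0 of 37), against 5.24% and 6.24% of all tested.

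Hoxb4, a gene of the hindbrain boundary and of blood stem cells, had 59.7, 111 and 69.3 in ATRA and 55.2, 69.5 and 65.1 in LE540. A single array was high, and the log2 change of 0.29 (SE 0.21, interval -0.18 to 0.77) was 0.03 without ATRA replicate 2 and 0.20 without LE540 replicate 1. Hoxb5 had 72.8, 75.6 and 63.1 in LE540, and its change of 0.21 (SE 0.17) was 0.07 without the same ATRA array and 0.23 without LE540 replicate 1. ATRA replicate 2 was the highest of the 9 arrays for 3 members, Hoxa4, Hoxb4 and Hoxb5, which is 8.11% against 6.67% of all tested.

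Hoxc8, a gene of the thoracic level and of cartilage, had 83.9, 69.4 and 64.5 in ATRA and 118, 82.1 and 68.7 in LE540. Its log2 change was -0.28 (SE 0.19), and -0.06 without LE540 replicate 1. Hoxd11, a limb and kidney gene, had 67.4, 65.9 and 75.7 in ATRA and 103, 76.3 and 75.1 in LE540, a change of -0.27 (SE 0.13), or -0.12 without that array. The change of Hoxd9, with 126, 103 and 87.6 in ATRA, was -0.25 (SE 0.19); it was -0.39 without ATRA replicate 1, -0.12 without ATRA replicate 3 and -0.20 without LE540 replicate 1. In each of these 3 genes the intensities of the groups overlapped.

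Among dim members outside the naming rule, Hoxa2, which patterns the second pharyngeal arch, had 58.1, 69.1 and 92.5 in ATRA and 46.3, 60.9 and 57.7 in LE540. This was the largest absolute change in the comparison, 0.40 (SE 0.19, interval -0.04 to 0.83, limma adjusted p = 0.568), or 0.28 without LE540 replicate 1 and 0.21 without ATRA replicate 3. Over the members 11 of 37 were higher with ATRA and the median was -0.04, beside 10090 of 23397 and -0.03 over all tested probe sets. Without LE540 replicate 1, 18 of 37 were higher and the median was -0.00. In cluster c 0 of 9 members were higher with ATRA, with and without that array, and the median went from -0.15 to -0.06 when it was left out. The pooled SD of the cluster c median between arrays of a group was 0.12. Without LE540 replicate 2 Hoxc12 was higher with ATRA (0.08). In clusters a, b and d the medians were -0.00, -0.06 and -0.03, and without LE540 replicate 1 they were 0.08, 0.01 and 0.03, which turns their direction.

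**Figure D4:**
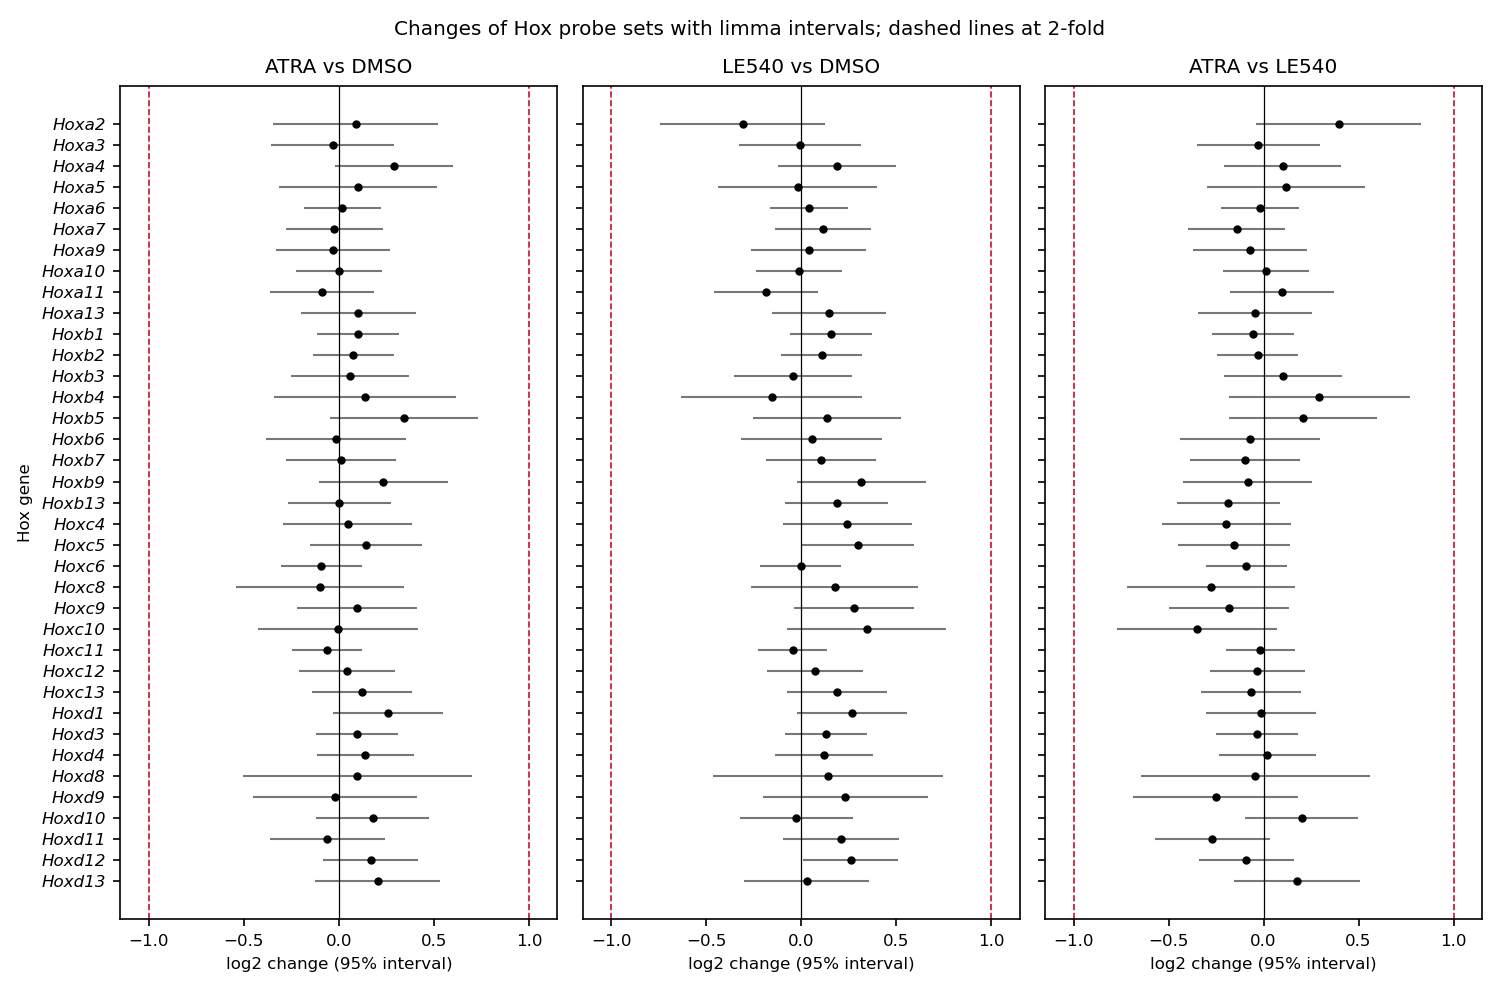
Log2 change (points) with its 95% limma interval (lines) of each Hox probe set in the 3 comparisons; the red dashed lines mark 2-fold either way. All 37 intervals lie between the dashed lines in every panel, and most cross 0, the exceptions being Hoxd12 and Hoxc5 for LE540 against DMSO.

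A moderated F test of any difference among the 3 groups passed 0 of 37 members in limma, with 0 at an unadjusted p under 0.05 and a lowest adjusted p of 0.681, against 0.286% of all tested probe sets. The probe set shared by Hoxb8 and Hoxb7, left out of the members, had 56.1, 51.5 and 52.3 in DMSO, 53.8, 47.9 and 51.5 in ATRA and 56.1, 54.3 and 49.5 in LE540, so its groups overlapped as well.

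The partners of the Hox proteins were brighter than the array medians for the most part. Of 9 Meis, Pbx and Pknox cofactor genes 8 were measured, and 6 lay over the median on all 9 arrays. With ATRA against DMSO 0 passed in either direction, and with LE540 against DMSO 0 passed. Meis2, whose protein binds DNA with Hox and Pbx proteins, had 1155, 913 and 899 in DMSO, 2020, 1329 and 1791 in ATRA and 264, 703 and 599 in LE540. The 3 groups did not overlap. It rose with ATRA against LE540 (log2 change 1.81, SE 0.34, limma adjusted p = 0.0927), the 1 cofactor to pass, and its change against DMSO was 0.78 (SE 0.34) with ATRA and -1.03 (SE 0.34) with LE540. Without LE540 replicate 1 the change against LE540 was 1.38 (adjusted p = 0.0713), and that of LE540 against DMSO was -0.60. The call was lost with the replicate number as a block (adjusted p = 0.134) and without any 1 of the DMSO or ATRA arrays (adjusted p = 0.118 to 0.290). It was also lost with only the 2 groups fitted (0.325), on linear intensities (0.186), with all rows tested (0.105) and at a threshold of 0.05. Meis1, of the same family, had 805, 780 and 769 in DMSO, 842, 748 and 908 in ATRA and 197, 513 and 547 in LE540, with a change of 1.12 (SE 0.34, adjusted p = 0.317) for ATRA against LE540, or 0.65 without LE540 replicate 1. Pbx3 had a change of -0.42 (SE 0.19) with ATRA and -0.75 (SE 0.19) with LE540, both against DMSO, the latter being -0.63 without LE540 replicate 1.

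Of 20 genes that act upstream of Hox genes, among them retinoic acid receptors, retinoic acid enzymes and Cdx factors, 19 were measured. With ATRA 1 rose, Cyp26a1, and with LE540 0 passed, both against DMSO; against LE540, ATRA raised Cyp26a1 and Rarb. The Cdx genes, which switch on central Hox genes in the embryo, had changes of 0.03 (Cdx1), 0.02 (Cdx2) and -0.12 (Cdx4) with ATRA against DMSO. Of 19 Polycomb, Trithorax and histone demethylase genes, which keep Hox genes silent or active, 18 were measured by 19 probe sets and 0 passed in any comparison. The 2 largest absolute changes with ATRA were those of Kmt2a, a Trithorax methyltransferase (-0.40, SE 0.22), and Ezh1, a Polycomb methyltransferase (-0.38, SE 0.24).

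The other transcripts of the Hox clusters gave a like picture. Of 26 such genes (Evx genes, antisense and long noncoding RNAs, miRNA genes and flanking genes) 18 were measured, and 0 passed in any comparison, with median log2 changes of 0.03 with ATRA and 0.10 with LE540 against DMSO. The miRNAs of the clusters fall into families by seed, bases 2 to 8 of the mature RNA, which are in capitals in these RefSeq sequences, shown because each family holds copies from different clusters.
mmu-miR-10a-5p: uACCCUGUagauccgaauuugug
mmu-miR-10b-5p: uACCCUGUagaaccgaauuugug
mmu-miR-196a-5p: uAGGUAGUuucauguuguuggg
mmu-miR-196b-5p: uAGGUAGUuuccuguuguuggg

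The miR-10 genes lie beside Hoxb4 and Hoxd4 and the miR-196 genes near paralogues numbered 9, and miR-196 is known to repress Hox messages such as Hoxb8. The probe sets named for these genes do not measure the mature RNA apart. Mir10a ranged from 6.79 to 13.03 and Mir10b from 8.56 to 18.1 over the 9 arrays, both far below the lower quartile, and both were highest on LE540 replicate 1. Mir196a-1 ranged from 23.6 to 34.7, Mir196a-2 from 40.3 to 75.3 and Mir196b from 60.3 to 84.6, with changes of 0.25 (SE 0.11), 0.14 (SE 0.26) and 0.16 (SE 0.14) with ATRA against DMSO. Lnpk, a flanking gene of cluster d, had the largest absolute change with ATRA, -0.42 (SE 0.22), and the next was that of Mir196a-1. Hoxd3os1, an antisense RNA that was added to the list afterwards, had changes of 0.12 and 0.03 in its 2 probe sets.

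Markers of the valve interstitium and of other cell types were seen. All 11 valve interstitial markers lay over the array median on all 9 arrays. So did 5 of 10 cardiomyocyte, 4 of 10 endothelial, 3 of 8 smooth muscle and 2 of 8 macrophage markers. Of the interstitial markers Vcan rose with ATRA against LE540 (1.29, adjusted p = 0.0608). None of the other marker lists had a gene that passed. With ATRA against DMSO 10 of 10 endothelial markers were higher (median 0.48, summed intensity 1404 to 3179 in DMSO and 2193 to 5722 in ATRA), 7 of 8 smooth muscle markers were higher (median 0.25, 2315 to 4151 and 3837 to 7517) and 1 of 10 cardiomyocyte markers was higher (median -0.32, 12021 to 24820 and 11655 to 19849), and these ranges overlap between the groups. Valve interstitial markers were higher with ATRA against DMSO for 9 of 11 (median 0.30). Their summed intensity was 20567 to 25877 in DMSO and 27747 to 30604 in ATRA, ranges that do not overlap. With LE540 against DMSO 9 of 11 valve interstitial markers were lower (median -0.21). Their sum was 15248 to 23740 in LE540, which overlaps DMSO, and the median was not taken without LE540 replicate 1. With ATRA against DMSO 3 of 8 macrophage (median -0.19), 4 of 5 measured neural crest and Schwann (0.08), 5 of 8 mesothelial and epithelial (0.04) and 1 of 2 measured erythroid markers (-0.14) were higher, and 5 of the 7 melanocyte probe sets (0.13). Summed intensities did not overlap for neural crest and Schwann markers (524 to 554 in DMSO and 556 to 707 in ATRA). Nor did they for mesothelial and epithelial (822 to 931 and 933 to 1017) or erythroid markers (339 to 389 and 304 to 331). Those of the macrophage and melanocyte lists overlapped. The part of cell makeup in the Hox values was not tested, and in a whole explant fewer cells of a type and less RNA per cell cannot be told apart.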

How the data were processed

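Expression was measured in 9 pooled explant samples, each on its own array. The deposited values are intensity values on a linear scale made by the authors with Affymetrix Expression Console 1.1 and RMA, per the submitters' processing notes; the genome build is not given in the sources used here. Of 28270 rows, 23397 had at least 1 gene symbol (21780 with 1, 1617 with several) and were tested; 4873 had none. The Entrez identifiers of 37 of 37 members matched their symbol in RefSeq.

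Log2 values were fitted with limma 3.58.1 in R 4.3.3, with 3 groups over 9 arrays (6 residual and 2.72 prior degrees of freedom). Tests were two-sided, with Benjamini-Hochberg adjustment over all tested probe sets; a probe set passed at an adjusted p under 0.1. The fit was tested on simulated data. "Rose" and "fell" are used of what passed. The number of arrays limits the precision.

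Members and gene lists were chosen with earlier results of these data known. Given in full were the 5 largest absolute changes per comparison among members whose mean exceeded the lower quartile of means, genes of the lists that passed or else the 2 largest changes with ATRA, and 4 retinoic acid targets; other genes were named after their values were seen. Markers of 9 cell types were counted (valve interstitial, cardiomyocyte, endothelial, smooth muscle, macrophage, neural crest and Schwann, melanocyte, mesothelial and epithelial, erythroid).

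Deviations of arrays with equal replicate numbers correlated at r = 0.143, 0.342 and 0.220 between ATRA and DMSO. Between LE540 and DMSO the values were 0.00946, 0.215 and 0.126, and between ATRA and LE540 0.261, 0.282 and 0.269. Such deviations were not compared between unlike numbers, so whether the numbers pair the arrays was not tested. Over the 37 members alone r ranged from -0.239 to 0.203, from -0.0747 to 0.294 and from -0.0904 to 0.179, in the same order. The main fit had no term for the replicate number, which served as a block in an alternative. Alternatives changed the arrays fitted, normalization, dim filters, probe sets tested, prior, array weights, replicate block, scale, threshold and each array in turn.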

Additional observations from a re-analysis of the deposited data

How the results depend on the processing

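No Hox probe set passed under any of the 21 alternatives of each comparison: the count was 0 throughout, also with the replicate block and with each array left out. The lowest adjusted p of a member ranged from 0.517 to 1 for ATRA against DMSO, from 0.265 to 0.907 for LE540 against DMSO and from 0.261 (replicate block) to 0.793 for ATRA against LE540, and for the F test from 0.390 to 0.916. At an unadjusted p under 0.05 the count of members ranged from 0 to 3, 0 to 4 and 0 to 3. All members tested kept an interval within 2-fold. The median log2 change of the members ranged from 0.05 to 0.10, 0.06 to 0.16 and -0.09 to 0.10. The value 0.10 for ATRA against LE540, beside -0.04 as reported, came from probe sets above the array median on at least 3 arrays, a filter that leaves 3 members. The 5 Hox changes per comparison chosen by the naming rule kept their direction in every alternative that tested them. Many alternatives, such as the filters, the prior and the replicate block, leave the change itself as it is. The genes were also chosen for the size of their change in these data, so the kept direction is no support for them. Over all tested probe sets the number that passed moved more: 19 (4 to 71), 7 (0 to 297) and 141 (25 to 278), and with the replicate block 29, 1 and 221. Meis2 passed in 10 of 21 alternatives, Rarb against LE540 in 14 of 21, Cyp26a1 against DMSO in 10 of 19, Dhrs3 against DMSO in 12 of 21 and Tgm2 in 21 of 21; the cause was not tested. For dim members the signal over background is not known.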
